A study of Homo sapiens with 3 samples.

Results

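The genes described here are 9 human genes of interferon signalling or induction, chosen by symbol from the 12040 genes listed in 1 expression table: IRF3, STAT2, IRF9, IFIT1, ISG15, IFI35, IFITM1, IFITM2 and IFITM3. All 9 had a row. The study measured poly(A) RNA by sequencing in HEK293, an established human embryonic kidney line, after transfection for RNA interference, to assess what DICER1 does to transcript levels, with the other groups as controls. Cells had DICER1 knocked down, DROSHA knocked down, or a mock transfection. Each of these 3 groups is 1 library. All of them came from 1 T-REx Flp-In derivative carrying a FLAG:DICER1 construct, so the mock cells carry it too. Cells in every group have 2.5d in their titles, with no explanation of it.

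Interferon signalling is an antiviral alarm. RNA sensors activate IRF3, a transcription factor that switches on interferon genes and, directly, some antiviral genes. Secreted type I interferon binds its receptor, the kinases JAK1 and TYK2 act on STAT2, which binds DNA with IRF9 at the interferon-stimulated response element, a repeat of GAAA half-sites in the promoters of induced genes. Among the induced genes, IFIT1 encodes a protein that binds viral RNA, ISG15 a ubiquitin-like modifier, and the IFITM genes membrane proteins that hinder viral entry. IFI35 encodes an interferon-induced protein that partners with NMI.

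The table has no header line, so its 3 columns of levels cannot be matched by name to a knockdown or to mock. Neither order nor values were used to match them. Each level column is named here by its role in the authors' fold changes: a first numerator library, a second numerator library, and a denominator library that both fold changes share. The first comparison sets the first numerator against the denominator and the second comparison the second numerator against the denominator. The unit of the levels is not named, so a level is read between libraries, and no gene is called more expressed than another. Nearness in level, used to pick genes with like values in the table, is nearness in the deposited number. DICER1 had levels of 5.72 in the first numerator library, 24.0 in the second numerator library and 15.7 in the denominator library. DROSHA had levels of 21.4 in the first numerator library, 6.72 in the second numerator library and 23.3 in the denominator library. Of genes chosen as markers of HEK293 cells, 5 of 7 had a row (VIM, KRT8, KRT18, LIN28B and NEFL), with summed levels of 507, 341 and 390 in the first numerator, second numerator and denominator libraries. The markers differed in pattern, with VIM at 369, 235 and 263, NEFL at 37.1, 18.2 and 23.2, KRT8 at 39.2, 29.4 and 42.1, and KRT18 at 43.0, 43.5 and 43.2 in those libraries. Of 6 markers of blood cells only CD68 had a row, at 2.85, 4.07 and 2.98 in the same libraries, and none of 4 fibroblast markers had one. The part of other cell types in the results was not tested. In RNA from whole cultures, fewer cells expressing a gene and less RNA per cell cannot be told apart.

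Promoters were searched for GAAANNGAAA, letters of the response element, and a match does not show a working element. They are printed for IFI35, the member with the highest fold change, and for the 4 members with a match. Sequences are from RefSeq on GRCh38.p14, a later build than the hg19 of the study, and run from 250 bases before to 50 bases after the annotated start. Capitals mark GAAANNGAAA on either strand. The windows are chr17:43006534-43006833 on the plus strand for IFI35, chr10:89392373-89392672 on the plus strand for IFIT1, chr1:1013247-1013546 on the plus strand for ISG15, chr11:313790-314089 on the plus strand for IFITM1 and chr11:320811-321110 on the minus strand for IFITM3.
IFI35: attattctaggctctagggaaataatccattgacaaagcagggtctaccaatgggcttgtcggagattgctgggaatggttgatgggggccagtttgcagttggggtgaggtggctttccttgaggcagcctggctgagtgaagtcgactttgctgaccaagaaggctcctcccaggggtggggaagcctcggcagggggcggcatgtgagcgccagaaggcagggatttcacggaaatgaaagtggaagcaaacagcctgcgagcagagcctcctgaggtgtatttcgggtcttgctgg
IFIT1: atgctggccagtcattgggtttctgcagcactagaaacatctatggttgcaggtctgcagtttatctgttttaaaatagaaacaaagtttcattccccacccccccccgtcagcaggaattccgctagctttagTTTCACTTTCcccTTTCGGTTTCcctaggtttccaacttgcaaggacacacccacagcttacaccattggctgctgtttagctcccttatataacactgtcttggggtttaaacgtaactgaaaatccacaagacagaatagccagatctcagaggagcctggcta
ISG15: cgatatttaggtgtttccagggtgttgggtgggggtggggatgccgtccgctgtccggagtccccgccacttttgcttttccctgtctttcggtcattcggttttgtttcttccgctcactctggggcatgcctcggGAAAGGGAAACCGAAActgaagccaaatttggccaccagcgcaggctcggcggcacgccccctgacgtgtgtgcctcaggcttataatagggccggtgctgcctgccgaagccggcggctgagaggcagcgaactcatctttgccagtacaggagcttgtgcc
IFITM1: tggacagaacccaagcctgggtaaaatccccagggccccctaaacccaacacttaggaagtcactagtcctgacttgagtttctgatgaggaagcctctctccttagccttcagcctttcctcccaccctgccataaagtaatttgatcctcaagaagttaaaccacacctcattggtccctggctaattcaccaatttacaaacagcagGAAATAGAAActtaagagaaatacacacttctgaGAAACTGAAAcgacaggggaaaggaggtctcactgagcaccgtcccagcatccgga
IFITM3: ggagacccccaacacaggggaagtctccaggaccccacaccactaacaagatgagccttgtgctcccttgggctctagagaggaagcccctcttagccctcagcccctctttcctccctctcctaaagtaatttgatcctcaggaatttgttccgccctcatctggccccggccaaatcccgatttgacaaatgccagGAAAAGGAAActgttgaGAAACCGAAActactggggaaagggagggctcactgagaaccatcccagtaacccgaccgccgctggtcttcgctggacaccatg

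Of the 7 members with a promoter in the RefSeq table, 4 held GAAANNGAAA, against 3.57% of all 35116 promoters of that length and 2.54% of the 8633 listed genes with one. Each of the 4 held it at 2 places. In IFIT1 both matches lay on the opposite strand, beginning 116 and 103 bases before the start. In ISG15 the matches began 113 and 107 bases before the start and overlapped. IFITM1 had its matches 40 and 6 bases before the start, and IFITM3 had them 52 and 35 bases before it. STAT2, IRF9 and IFI35 had no match in these windows, which says only that these letters are not there.

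With 1 library per group there was no replicate error and no test, and every value describes these libraries. A log2 fold change is the log2 ratio of (level + 1) in the numerator library to (level + 1) in the denominator library. Adding 1 shrinks the value of genes with low levels. A gene counts as risen or fallen at a log2 fold change of at least 1 in size, which is a 2-fold difference in level + 1. IFI35 rose in the second comparison and was the only member to pass that threshold in either comparison. No member passed it in the first comparison, where 0.174% of all genes rose and 0.166% fell. In the second comparison 0.0831% of all genes rose and 0.748% fell.

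**Figure D1:**
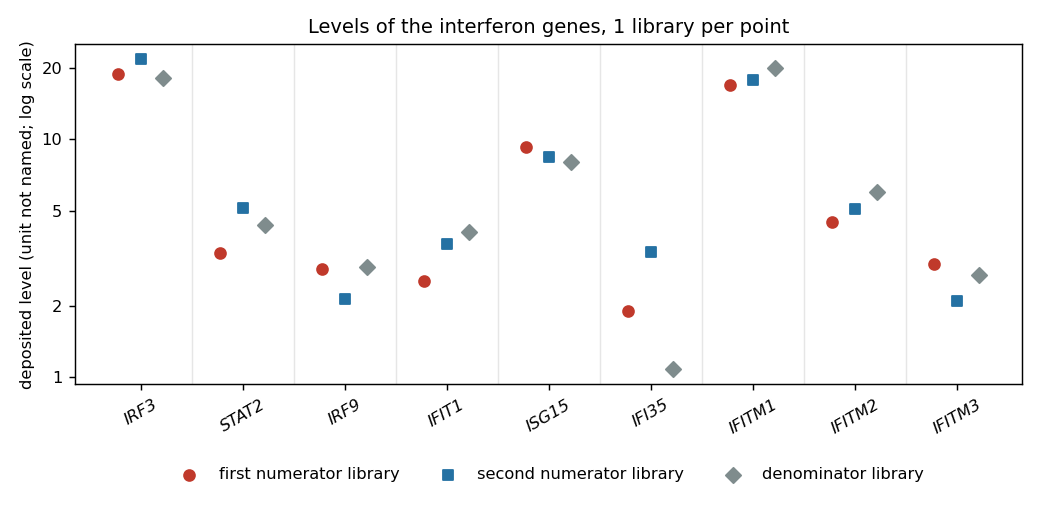
Deposited level of each interferon gene (log axis, unit not named) in the first numerator, second numerator and denominator libraries, 1 point per library. IFI35 stood at 1.89, 3.37 and 1.09 in that order, and IFIT1 at 2.54, 3.64 and 4.09.

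IFI35 had levels of 1.89 in the first numerator library, 3.37 in the second numerator library and 1.09 in the denominator library. Both numerator libraries lay above the denominator library, and the second numerator was the highest of the 3. The plain ratio of levels was 1.74 in the first comparison and 3.10 in the other. With 1 added to each level, the log2 fold changes were 0.47 and 1.07. The second value ranked 6 from the top of 12040 genes, and the first ranked 215 from the top.

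The deposited value of IFI35 in the denominator library was close to the lowest in its column, where every row is above 1. Among the 500 genes nearest to it in that library, with levels up to 1.36, 3 rose in the second comparison, IFI35 among them, and 1 fell. The risen genes were 0.6% of the 500, against 0.0831% of all genes, while 0.748% of all genes fell. The standard deviation of fold changes over those 500 genes was 0.28, against 0.30 over all genes in the same comparison. Adding 1 shrinks fold changes most at such low levels, so the like spread does not show like error. The value added before the ratio decided the size of the IFI35 fold change. IFI35 stood at 1.63 in the second comparison with nothing added and at 0.80 with 2 added, and so passed the threshold with 0, 0.1, 0.5 or 1 added and not with 2 or 5. The depth behind a level near 1 is unknown, and no counting interval can be given.

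**Figure D2:**
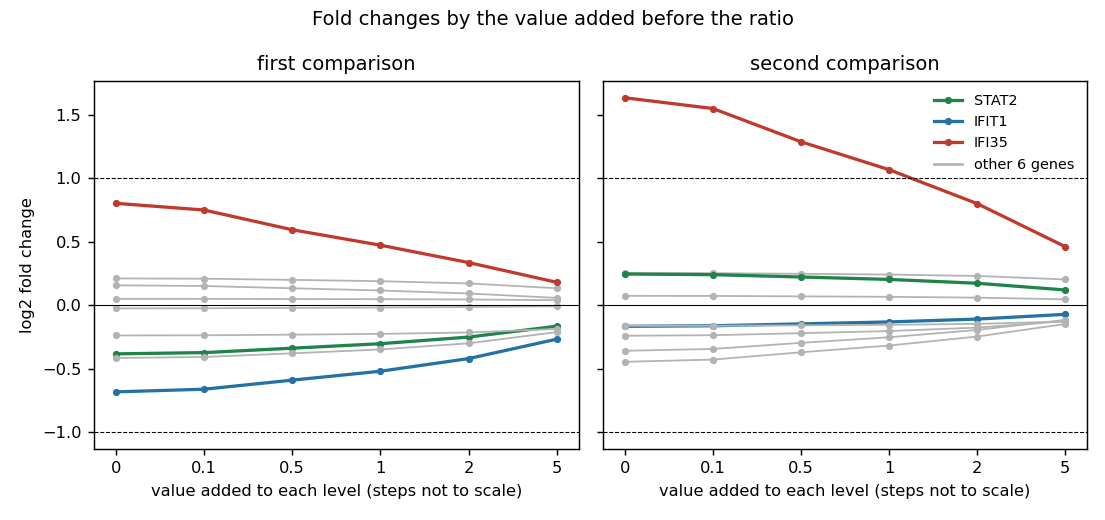
Log2 fold change of the 9 genes (vertical axis) against the value added to each level before the ratio (horizontal axis, steps not to scale), first comparison left and second comparison right. IFI35 in the second comparison lies above the dashed line at 1 up to an added value of 1, and no other line reaches a dashed line.

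The genes beside IFI35 on chromosome 17 had smaller fold changes. RPL27, a ribosomal protein gene listed before it, had log2 fold changes of 0.17 in the first comparison and 0.059 in the other. VAT1, listed after it, had levels of 36.2, 28.4 and 30.1 in the first numerator, second numerator and denominator libraries, or log2 fold changes of 0.26 and -0.08. NMI, the partner of the IFI35 protein, had levels of 2.64, 2.41 and 2.38 in those libraries. Its log2 fold changes were 0.11 and 0.01, so in neither comparison did it approach IFI35. The 3 genes with fold changes nearest to those of IFI35, by straight-line distance over the 2 comparisons, were TPRG1L at 0.42 and 1.01, MTRNR2L2 at 0.32 and 1.05, and H3F3A at 0.52 and 1.22. The last 2 of these have near-identical copies elsewhere in the genome, so their values are uncertain. Likeness rests on 2 values per gene with a shared denominator library.

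IFIT1 stood lowest of the members in the first comparison. Its levels were 2.54 in the first numerator library, 3.64 in the second numerator library and 4.09 in the denominator library. Both numerator libraries lay below the denominator library. The plain ratios were 0.623 in the first comparison and 0.891 in the other, and the log2 fold changes were -0.52 and -0.13. The first value ranked 218 from the bottom of 12040 genes. Among the 500 genes nearest in denominator level it lay at percentile 2.1. In the first comparison 2.04% of all genes stood at -0.5 or lower and 1.46% at 0.5 or higher, and IFIT1 was the only member beyond either value.

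IFIT5, the next listed gene of the IFIT cluster on chromosome 10, encodes a related RNA-binding protein. Its levels were 7.99 in the first numerator library, 7.52 in the second numerator library and 9.41 in the denominator library. Its log2 fold changes were -0.21 and -0.29, below 0 in both comparisons like those of IFIT1. LIPA, a lysosomal lipase gene, overlaps IFIT1 in the RefSeq annotation. It had log2 fold changes of -0.27 in the first comparison and 0.15 in the other. Of 4612 distinct windows of 50 bases in the coding transcripts of IFIT1 in GENCODE release 29, 1.02% also occurred in a transcript of any other gene on either strand. The 3 genes nearest to IFIT1 over both comparisons were LPXN at -0.50 and -0.15, FAM45B at -0.54 and -0.11, and LEPR at -0.56 and -0.13. FAM45B has a near-identical copy, so its value is uncertain.

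**Figure D3:**
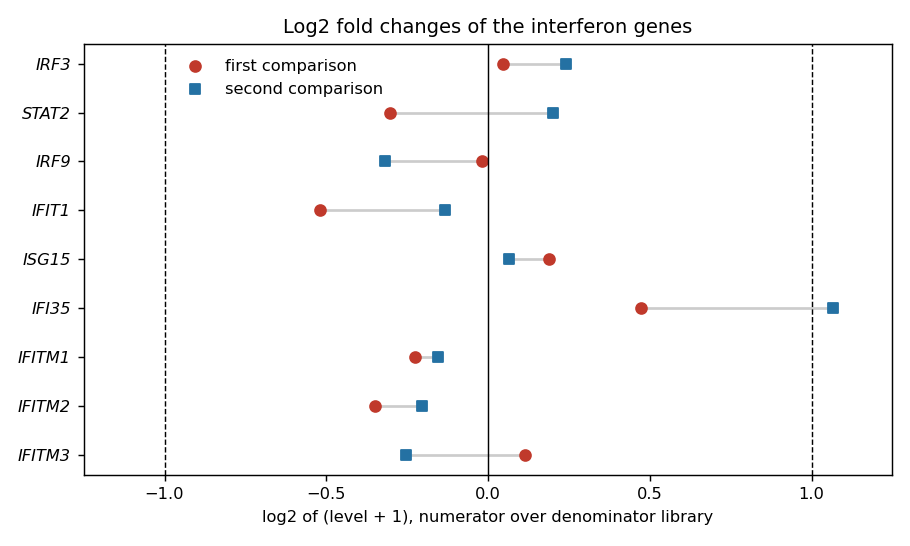
Log2 fold change of each interferon gene (horizontal axis) in the first comparison (circles) and the second comparison (squares), with dashed lines at -1 and 1. IFI35 in the second comparison, at 1.07, is the only point beyond a dashed line.

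ISG15 stood slightly above the denominator library in both comparisons. Its levels were 9.28 in the first numerator library, 8.44 in the second numerator library and 8.02 in the denominator library. The log2 fold changes were 0.19 and 0.065, at percentiles 80.1 and 59.6 of all genes. Genes that attach or remove ISG15 were measured as well. USP18, which removes ISG15 from proteins and dampens receptor signalling, had log2 fold changes of 0.05 and 0.12, and HERC5, a ligase for ISG15, 0.29 and 0.11. UBE2L6, the conjugating enzyme, had -0.26 and -0.07. These enzymes and ISG15 therefore did not all stand on the same side of 0 in either comparison.

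The IFITM genes lie together on chromosome 11 and stood below 0 except IFITM3 in the first comparison. IFITM1 had levels of 16.9 in the first numerator library, 17.8 in the second numerator library and 19.9 in the denominator library, with log2 fold changes of -0.23 and -0.16. IFITM2 had levels of 4.51, 5.09 and 6.02 in the same libraries, with log2 fold changes of -0.35 and -0.20. IFITM3 had levels of 3.00, 2.101 and 2.70 in the same libraries, with log2 fold changes of 0.12 and -0.25. In the second comparison the range of the 3 genes was narrow, from -0.25 to -0.16. In the first it ran from -0.35 to 0.12.

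The IFITM genes are close copies, and reads may have been shared among them. The annotated span of IFITM2 (bases 307631 to 315272) also contains that of IFITM1 (313506 to 315272), on the same strand. Transcripts assigned to IFITM2 may therefore run through IFITM1. Sequence shared between IFITM1 and IFITM2 may thus reflect this overlap as well as likeness of copies, and the part of each was not tested. Of the distinct windows of 50 bases in the coding transcripts of IFITM1, 30.3% also occurred in transcripts assigned to IFITM2 and 9.46% in those of IFITM3. For IFITM2, 11.8% occurred in IFITM3 and 4.97% in IFITM1. For IFITM3, 12.1% occurred in IFITM2 and 8.46% in IFITM1, and 20.6% in AC136475.5 on the opposite strand. Windows came only from coding transcripts of a gene and were looked for in all transcripts of the other. The shares of a pair, such as 30.3% and 4.97%, therefore rest on unlike sets of transcripts. The sources used here do not say how the authors' counting treated such reads, so the split of levels among the 3 genes is uncertain. ATHL1, the listed gene on the other side of IFITM2, had log2 fold changes of 0.12 and -0.54. B4GALNT4, listed beyond IFITM3, had -0.10 and -0.37.

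Of the signalling members, STAT2 had opposite signs in the 2 comparisons. Its levels were 3.33 in the first numerator library, 5.16 in the second numerator library and 4.35 in the denominator library. The first numerator lay below the denominator and the second above it, with log2 fold changes of -0.30 and 0.20. They lay at percentiles 6.52 and 79.7 of all genes. PAN2, listed before STAT2 on chromosome 12, stood at -0.0040 and 0.036, and TIMELESS, listed after it, at -0.028 and -0.07.

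IRF9, which binds DNA with STAT2, was lowest in the second numerator library. Its levels were 2.85 in the first numerator library, 2.13 in the second numerator library and 2.91 in the denominator library. The log2 fold changes were -0.019 and -0.32. In the second comparison IRF9 was the lowest of the 9 members, at percentile 13.5 of all genes. STAT2 and IRF9, whose proteins act in 1 complex, thus stood on different sides of 0 in that comparison. Of the distinct 50-base windows of IRF9, 89.1% also occurred in a transcript of the GENCODE gene AL136295.5, on the same strand. How the authors' counting treated such reads is not known here, so the IRF9 values are uncertain. RNF31, listed before IRF9 on chromosome 14, had 0.14 and 0.13, and IPO4, listed after it, 0.08 and 0.08.

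IRF3 had levels of 18.8 in the first numerator library, 21.7 in the second numerator library and 18.2 in the denominator library. Its log2 fold changes were 0.047 and 0.24, at percentiles 53.5 and 84.0. BCL2L12, a BCL2-related gene that overlaps IRF3 on the opposite strand, had 0.37 and 0.48. Of the distinct 50-base windows of IRF3 transcripts, 13.7% lay in BCL2L12 transcripts on the opposite strand. The sources used here do not say whether counting used strand, so reads of these genes cannot be told apart in the overlap. SCAF1, listed on the other side of IRF3, had 0.22 and -0.0044.

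The letters CAATCTA and AATCTAA were looked for because an earlier look at these data picked them as the 3' UTR 7-mers whose carriers were lowest in the first comparison. Their presence is therefore a description and supports nothing. Of the 9 members, 2 carried either 7-mer in a 3' UTR of GENCODE release 29, against 17.2% of the 10591 listed genes with a 3' UTR. The carriers were 1 of 3 STAT2 transcripts and the longer of 2 IFIT1 transcripts, with 3' UTRs of 682 and 2777 bases. These were the longest 3' UTRs among the transcripts of the members, and the shares over listed genes were not matched for length. The sites are printed with up to 30 bases of transcript and with the 7-mers in capitals. In STAT2 the 7-mers overlap and end the transcript.
STAT2: atgatcctgcCAATCTAA
IFIT1: atgcagtttaCAATCTAgtgagagacacag
The letters GTGACTT and TGACTTA, picked in the same way from the second comparison, occurred in the longer IFIT1 transcript and in no other member, against 24.4% of those listed genes. In that comparison IFIT1 stood at -0.13, above IRF9 and the 3 IFITM genes, which do not carry them. These letters were picked from the same fold changes, so this order is also a description and supports nothing.

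**Figure D4:**
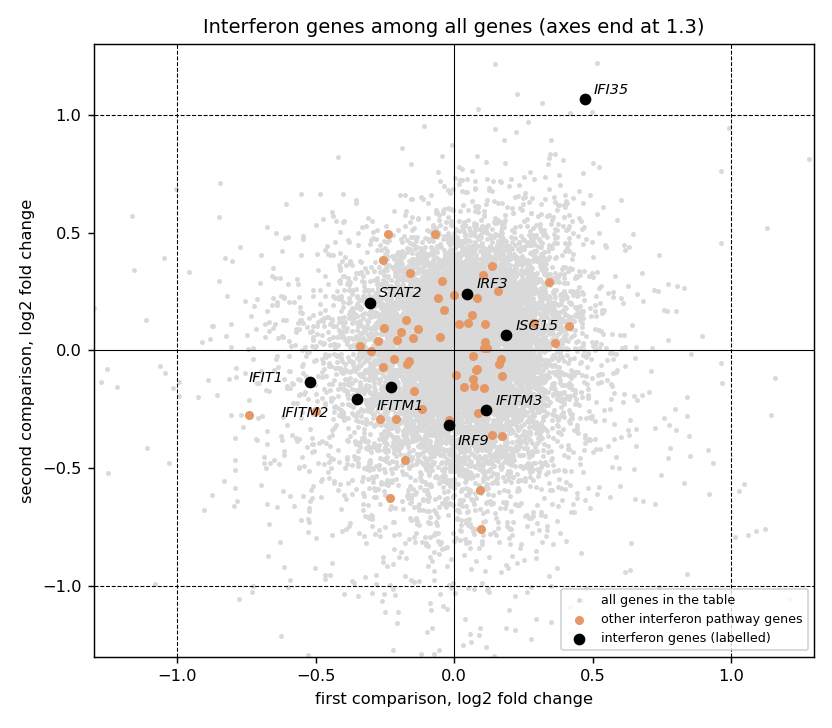
Log2 fold change of every gene in the first comparison (horizontal axis) and the second comparison (vertical axis), all genes in grey, other interferon pathway genes in orange and the 9 interferon genes in black. The axes end at 1.3, which leaves out 41 genes, and IFI35 at 0.47 and 1.07 is the only black or orange point beyond a dashed line at 1.

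Over the 9 members the median log2 fold change was -0.019 in the first comparison, against 0.03 over all genes. In the second comparison it was -0.13, against 0.0063 over all genes. In each comparison 4 of the 9 stood above 0, where 56.5% of all genes did so in the first and 51.1% in the second. The members thus had no common direction in either comparison. In the second comparison 2.33% of all genes stood at 0.5 or higher and 5.59% at -0.5 or lower, and IFI35 alone among the members lay beyond these values. The comparisons share the denominator library, so their values for a gene are not independent.

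Subtracting the second from the first fold change compares the numerator libraries, and the denominator cancels. No member reached 1 in size, where 1.31% of all genes stood at 1 or higher and 0.349% at -1 or lower. IFI35 differed by -0.59 and STAT2 by -0.51, both lower in the first numerator library. These were the 2 members at -0.5 or lower, where 4.82% of all genes stood, and none was at 0.5 or higher, where 8.6% of all genes stood. IFIT1 differed by -0.39, IRF3 by -0.19, IFITM2 by -0.14 and IFITM1 by -0.07. IFITM3 differed by 0.37, IRF9 by 0.30 and ISG15 by 0.12, higher in the first numerator library. The median of the members was -0.14, against 0.025 over all genes.

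Other genes of the pathway were read from a list of 113 symbols, some of them older and newer names of 1 gene, and 62 had a row. The other 51, among them all 10 symbols of interferon ligands, were not analysed here. Every listed gene had a denominator level above 1, while a numerator level could be lower, as for DDX58 at 0.737 in the first numerator library. A gene low in the denominator library may therefore lack a row whatever its numerator levels, and the 62 cannot speak for such genes. None of the 62 rose or fell in either comparison. Their medians were 0.0026 in the first comparison and 0.01 in the other, with 32 above 0 in each. At 0.5 in size, 1 stood lower in the first comparison and 3 stood lower in the second, and none stood higher. Over all genes 2.04% stood that low and 1.46% that high in the first comparison, and 5.59% that low and 2.33% that high in the second, so the counts are near these shares.

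Receptors and their kinases had 8 rows. IL10RB, a receptor chain shared with interleukin-10, stood highest of them at 0.34 in the first comparison, followed by JAK1 at 0.16, while IFNAR1, a chain of the type I interferon receptor, was at -0.30 and IFNGR1, of the type II receptor, at -0.23. In the second comparison IL10RB was at 0.29 and JAK1 at 0.25, and IFNGR1 was lowest at -0.63, then IL28RA, of the type III receptor, at -0.29. IFNGR1 had levels of 15.2 in the first numerator library, 11.3 in the second numerator library and 18.1 in the denominator library.

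Among 6 other transcription factors with a row, STAT3, which relays interleukin-6 and related signals, was lowest in the first comparison at -0.74 and IRF5 next at -0.18. STAT3 had levels of 8.999 in the first numerator library, 12.8 in the second numerator library and 15.7 in the denominator library. IRF8 at 0.17 and IRF1 at 0.14 were highest in the first comparison. In the second, IRF2 was highest at 0.495, and IRF5 at -0.46 and IRF8 at -0.36 were lowest.

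Sensors and adaptors had 10 rows. DDX58, which encodes the RNA sensor RIG-I, stood at -0.26 and then 0.38 over the first and second comparisons, and IFIH1, which encodes the sensor MDA5, at -0.04 and 0.17. DDX58 had levels of 0.737 in the first numerator library, 1.70 in the second numerator library and 1.08 in the denominator library. IKBKE, a kinase that can activate IRF3, was lowest in both comparisons, at -0.498 and -0.26. Its levels were 0.871 in the first numerator library, 1.21 in the second numerator library and 1.64 in the denominator library. MYD88 at 0.12 and TBK1 at 0.11 were highest in the first comparison. MYD88 had levels of 1.66, 1.48 and 1.46 in the first numerator, second numerator and denominator libraries. TMEM173, which encodes the adaptor STING, was next to lowest in the second comparison at -0.25. MAVS, the adaptor of both RNA sensors, stood at -0.13 and 0.09.

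Negative regulators and ISG15 conjugation genes had 13 rows. IRF2BP1, a corepressor of IRF2, stood highest in the first comparison at 0.36, with HERC5 next, and PTPN6 and PIAS3 lowest, both at -0.27. In the second, the phosphatase gene PTPN2 was highest at 0.36 and PIAS4 next at 0.22, while IRF2BP2 was lowest at -0.59 and PIAS3 next at -0.29. IRF2BP2 had levels of 26.8 in the first numerator library, 16.2 in the second numerator library and 25.0 in the denominator library.

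Of 55 other symbols of induced genes, 25 had a row. TAP1, a peptide transporter for antigen presentation, was highest in the first comparison at 0.41 and PARP12 next at 0.17, while PLSCR1 at -0.34 and TRIM21 at -0.25 were lowest. In the second, SP110 at 0.495 and IFI6 at 0.33 were highest, and ADAR at -0.76 and IFIT5 lowest. SP110 had levels of 1.36, 2.94 and 1.79 in the first numerator, second numerator and denominator libraries. ADAR, which edits adenosine to inosine in double-stranded RNA, had levels of 51.6 in the first numerator library, 28.1 in the second numerator library and 48.2 in the denominator library. EIF2AK2, which encodes the kinase PKR, stood at -0.21 and 0.04. Medians over the 25 were 0.00025 and 0.01.

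**Figure D5:**
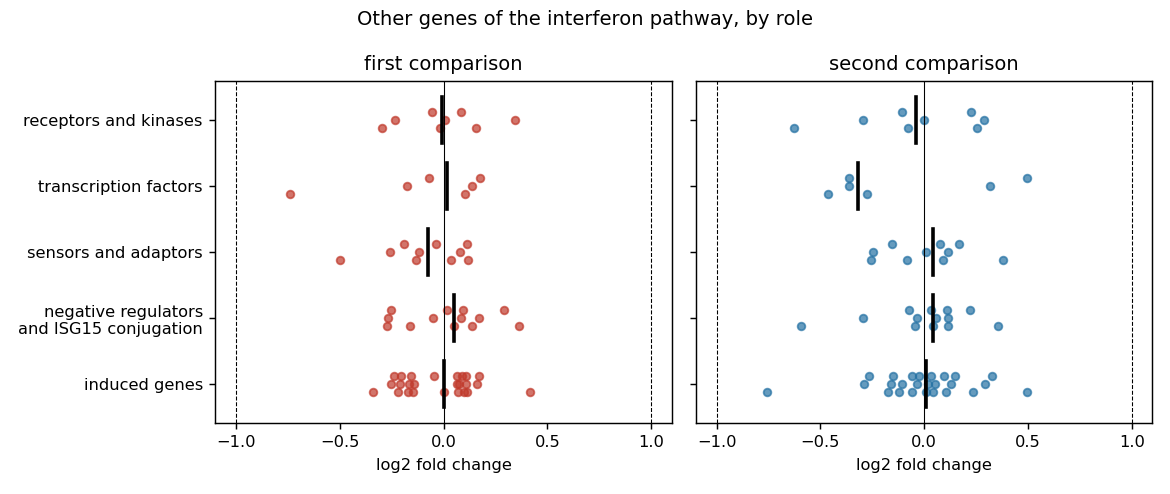
Log2 fold changes of 62 other interferon pathway genes by role (rows), first comparison left and second comparison right, 1 point per gene with a black bar at the median of the role. No point reaches a dashed line at -1 or 1, and the lowest are STAT3 at -0.74 in the first comparison and ADAR at -0.76 in the second.

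The same letters were also looked for in the promoters of other listed genes. Of the other induced genes with a row, 22 had a promoter in the RefSeq table and 15 of these held GAAANNGAAA. Over all 219 listed genes with a match, the median log2 fold change was 0.0065 in the first comparison and 0.017 in the other, and none rose or fell in either. Over all genes 0.174% rose and 0.166% fell in the first comparison, and 0.0831% rose and 0.748% fell in the second, so few of 219 would pass at those shares. In the first minus the second fold change, 2 of the 219 stood at 1 or higher and 1 at -1 or lower, against 1.31% and 0.349% of all genes. IFI35, the 1 member that rose, had no exact match in its window, and the 4 members with one stood between -0.52 and 0.19. Whether a match bears on any fold change was not tested.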

How the data were processed

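Each of the 3 groups gave 1 poly(A) RNA library. Per the submitters' processing notes the build was hg19 and the tools were SAMtools, TopHat2 2.06, CASAVA 1.8.2, Cuffdiff 2.1.1 and Cufflinks, with no step given for any. The deposited table lists 12040 symbols with 3 levels each, whose unit is not named, and 2 log2 fold changes that the authors made. The level columns carry no name and were assigned to no sample. Fold changes were recomputed from the levels after adding 1 and matched the authors' deposited log2 columns for all 12040 genes within 1e-11. Depth is unknown, since no counts are held.

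No test was possible with 1 library per group. Calls used a log2 threshold of 1, and percentiles are over all genes or the 500 nearest in denominator level. Named genes were all members, the 2 highest and 2 lowest per pathway role and comparison, the nearest listed neighbours, and the 3 genes most like IFI35 and IFIT1. Other genes named (NMI beside IFI35, USP18 and UBE2L6 beside ISG15, and MAVS and EIF2AK2 for their roles) were chosen after their values were seen. One gene that the rule names is not reported here. The members, lists, thresholds and 7-mers were chosen with earlier results of these data known. Neighbours came from RefSeq (GRCh38.p14), transcripts from GENCODE release 29 (GRCh38), both later than hg19. Python 3.11.15, numpy 2.4.6 and pandas 2.3.3 were used. The arithmetic was checked on simulated levels made without noise from the same formula, which says nothing about error. Alternatives covered the threshold, re-centring, the added value and a floor on the denominator level.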

Additional observations from a re-analysis of the deposited data

Results flagged for a closer look

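STAT2 and IFITM3 moved in opposite directions in the comparisons, in 1 library each, and the difference was not tested. For STAT2 the first minus the second log2 fold change was -0.51, from values of -0.30 and 0.20. For IFITM3 it was 0.37, from values of 0.12 and -0.25, and its reads may be shared with IFITM1 and IFITM2. In the plain levels, STAT2 was at 3.33 in the first numerator library, 5.16 in the second numerator library and 4.35 in the denominator library, and IFITM3 at 3.00, 2.101 and 2.70 in those libraries. Neither gene differed by 1 or more in size.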

How the results depend on the processing

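No paired analysis was possible because each group has 1 library. In the first comparison the count of members past the threshold was 0 under every alternative except a log2 threshold of 0.5, which gave 1 (IFIT1). In the second it was 1 (IFI35), and 0 with 5 added to each level, with 2 added, or where a denominator level of at least 5 was asked for, which removed IFI35 and left 4 members. For the first minus the second fold change it was 0, and 1 at a 1.5-fold threshold (IFI35) and 2 at a log2 threshold of 0.5 (IFI35 and STAT2). Adding 0, 0.5 or 2 was chosen after seeing the data. Over 174 member values under the alternatives, none changed sign. An added value or a floor on the denominator level cannot change a sign, so only the 27 re-centred values could have done so. Re-centring moved none by 0.1 or more, while adding 0.1 moved 9 of 27 and adding 5 moved 12 of 27 by that much. Adding more shrinks ratios of low levels by construction. Levels near 1 limit the IFI35 and DDX58 values, and those of other low genes such as IKBKE, IFIH1, MYD88 and SP110. The error of these values is unknown.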
